A study of Rattus norvegicus with 6 samples.

Results

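Chemokines are small secreted proteins that guide leukocytes along a gradient, and each acts through one or more receptors of the G protein-coupled family on the cell that moves. The CC and CXC families are named for the spacing of cysteines near the amino terminus, and the CX3C family has a single ligand tethered to the membrane. In liver, Kupffer cells, sinusoidal endothelium, stellate cells and hepatocytes make chemokines, and the receptors sit mostly on lymphocytes, monocytes and neutrophils in the sinusoids and portal tracts. The genes described here were every probe set whose platform annotation gave 1 symbol starting with Ccl, Cxcl, Cx3cl, Ccr, Cxcr or Cx3cr and a digit, with the interferon-induced ligands Cxcl9, Cxcl10 and Cxcl11 left out. This rule took 48 probe sets of 31099 on the array. They stood for 37 genes of 14218 with 1 symbol, 25 ligands and 12 receptors. No measured value entered the choice of members, but they were proposed with results of these data known.

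Expression was measured in 6 rat livers on 1-colour arrays, on which a probe set is a group of short probes for 1 transcript. The 3 probiotic livers came from rats kept for 30 d on a fat-rich diet until hypercholesterolemic, then for another 30 d on that diet with Lactobacillus casei Zhang, a lactic acid bacterium, in 1 ml of saline by gavage each day. The 3 high-fat livers came from rats on the same diet given the saline alone, so both groups are diet-fed and no liver of a rat on normal diet was analysed here. The labels give neither strain, sex nor age and do not say that each sample is a separate rat, and p-values therefore measure the spread between these samples, which may be technical. All values below are quantile normalized log2 signals. Because every probe set binds its own target differently, differences between groups are read for 1 probe set at a time. The background limit and the summed markers below do set probe sets of different genes side by side. They therefore depend on that binding, and in a sum the brightest markers weigh most. Deposited intensities were scaled to a trimmed mean of 500, their medians were 90.4 to 147, and the number of arrays limits the precision. The tissue label fitted the hepatocyte markers, of which 9 of 9 on the array were above background. The gap between the 3' and 5' control signals of Actb, which widens as RNA shortens, was 2.11, 3.01 and 2.38 on the log2 scale in probiotic samples 1, 2 and 3, against 1.96, 1.59 and 1.96 in high-fat samples 1, 2 and 3 (exact two-sided permutation p = 0.1, the smallest that 3 against 3 allow). The groups thus did not overlap in this measure of RNA quality. The same gap for Gapdh was 0.711, 1.49 and 1.23 in probiotic samples 1, 2 and 3. In high-fat samples 1, 2 and 3 it was 0.523, 0.534 and 0.794. By Gapdh the groups overlapped (exact two-sided permutation p = 0.2). The part of RNA quality in the differences below was not tested beyond adding the Actb gap to the fit. In tissue RNA, fewer cells of a type and less RNA per cell cannot be told apart.

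A minority of the family was above background in these livers, and the share of all genes that meet the same rule was not computed. Of the 37 genes, 10 were above background, 8 ligands and 2 receptors. A probe set was counted above background on an array where it exceeded the 95th percentile of 27 probe sets for odorant, pheromone and bitter taste receptors, which liver is not expected to express. A gene was counted where 1 of its probe sets did so on all 3 arrays of at least 1 group. The limit lay between 6.37 and 7.17 on the 6 arrays, and 47.5% to 62.8% of all probe sets exceeded it. Of the 48 chemokine probe sets, 13 to 26 did so on each array. The 26 were on probiotic sample 1, beside 62.8% of all, and the 13 on probiotic sample 3, beside 47.5%. The highest of the 27 background probe sets reached 7.10 to 9.03, so the limit rests on few probe sets. At their 99th percentile 5 genes remained above background, namely Ccl6, Ccl9, Cxcl12, Cxcl13 and Cxcl16, and at the 90th percentile there were 13, with Ccl4, Ccl22 and Cx3cr1 added.

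The ligands above background were Ccl5, Ccl6, Ccl9, Ccl19, Ccl27, Cxcl12, Cxcl13 and Cxcl16, and the receptors were Cxcr3 and Cxcr5. Of these 10 genes, 8 were above the limit on all 6 arrays, and Ccl19 and Cxcr3 were so on 5. The other 27 genes, 17 ligands and 10 receptors, did not meet the rule, and 10 of them were not above the limit on any array with any probe set. Those 10 were the ligands Ccl7, Ccl11, Ccl20, Ccl28 and Cxcl6 and the receptors Ccr2, Ccr6, Ccr10, Cxcr1 and Cxcr2. Cxcl1 failed the rule for another reason, being far above the limit on 4 arrays and below it on 2.

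**Figure D1:**
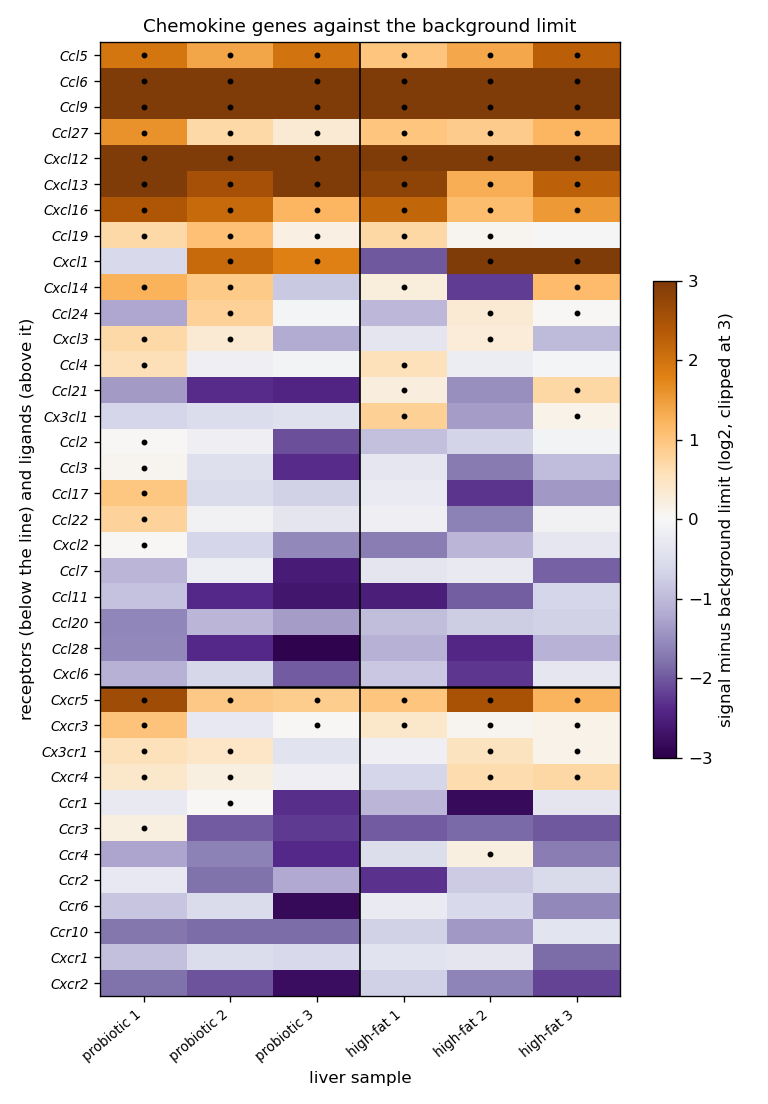
Each row is a gene and each column a liver sample, probiotic samples on the left. Colour gives the log2 signal minus the background limit of that array for the probe set that exceeds it most, clipped at 3, and a dot marks a signal above the limit. Rows run from genes above the limit on all 6 arrays to genes above it on none, ligands over receptors. The 7 ligands at the top and Cxcr5 carry a dot in every column, and most receptors carry few or none.

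The position of the genes, which the rule did not use, set some of them side by side. In the order of protein-coding genes of rat assembly GRCr8, Ccl5, Ccl9, Ccl6, Ccl3 and Ccl4 follow each other, and of this run Ccl5, Ccl9 and Ccl6 were above background while Ccl3 and Ccl4 were not. The ligands Ccl2, Ccl7 and Ccl11, which attract monocytes and eosinophils, also lie next to each other, and none was above background. The same held for the run of Ccl17, Cx3cl1 and Ccl22. Ccl27 and Ccl19 are neighbours and both were above background.

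Sequences before the start sites are shown for 3 members. Cxcl1 is shown for its range between livers, and Ccl6 and Cxcl13 because no other members passed an unadjusted p of 0.05. Each is the 250 bases before the RefSeq start site in assembly GRCr8, written 5′ to 3′ along the gene, and all 3 genes lie on the minus strand. Cxcl1 is at chr14:17479322-17479571, Ccl6 at chr10:68883367-68883616 and Cxcl13 at chr14:13917921-13918170. Capitals mark matches, on either strand, to 3 motifs: GGGA and TTCC with any 2 bases between them for NF-kB, the inflammatory transcription factor, TGANTCA for AP-1, and TATAAA, the core of the TATA box.
Cxcl1: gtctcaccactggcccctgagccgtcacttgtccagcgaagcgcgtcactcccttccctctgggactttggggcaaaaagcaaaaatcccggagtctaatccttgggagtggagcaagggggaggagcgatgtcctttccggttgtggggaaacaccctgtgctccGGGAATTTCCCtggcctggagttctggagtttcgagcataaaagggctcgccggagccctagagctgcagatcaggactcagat
Ccl6: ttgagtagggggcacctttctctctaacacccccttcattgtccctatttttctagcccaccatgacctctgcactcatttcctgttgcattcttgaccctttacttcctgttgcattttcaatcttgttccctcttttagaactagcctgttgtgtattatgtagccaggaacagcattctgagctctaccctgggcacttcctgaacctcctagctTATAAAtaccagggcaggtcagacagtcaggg
Cxcl13: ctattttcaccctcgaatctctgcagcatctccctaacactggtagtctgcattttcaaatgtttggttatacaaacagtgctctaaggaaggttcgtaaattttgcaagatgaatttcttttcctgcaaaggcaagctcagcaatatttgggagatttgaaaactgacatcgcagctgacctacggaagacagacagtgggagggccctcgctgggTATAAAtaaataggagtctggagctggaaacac

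The Cxcl1 window held the NF-kB motif from 84 to 75 bases before the start site, with an overlapping match on the other strand from 83 to 74. RefSeq promoters were found for 28 of the 37 genes. Of these, 4 held the NF-kB motif (Ccl7, Ccr3, Cxcl1 and Cxcl6), or 14.3%, beside 1.08% of 33469 rat promoter windows of the same length. None of the 4 was above background by the rule. TATAAA stood from 32 to 27 bases before the start site of Ccl6 and from 33 to 28 before that of Cxcl13. It was present in 7 of the 28 windows (25%) and in 12.9% of all, and the AP-1 motif in 3 (10.7%) and in 6.34% of all. A match is a description of these letters and not of binding.

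The comparison of probiotic with high-fat livers addressed whether feeding the bacterium goes with a different chemokine profile in the diet-fed liver. No chemokine or receptor passed the test. Of the 48 probe sets, 21 for 18 genes passed the filter on dim signals (a mean over the 6 arrays at or above the 40th percentile of all probe sets, 6.30), with Cx3cl1 just inside at 6.50 and a Cxcr4 probe set just outside at 6.297. At an adjusted p under 0.05 (limma, Benjamini-Hochberg over all 18625 probe sets tested) 0 of the 21 were called, beside 0.0215% of all, and the smallest adjusted p was 0.726. At an unadjusted p under 0.05, 1 of 21 was higher in probiotic livers, Cxcl13, where 2.99% of all probe sets were, and 1 of 21 was lower, Ccl6, where 3.86% were. Both counts are near the background. The groups did not overlap for 1 of the 21 with lower values in probiotic livers, Ccl6 again, beside 6.70% of all, and for 0 of 21 with higher values, beside 6.02%. Leaving out 1 sample gave 1 to 7 without overlap in either direction, most without high-fat sample 1, when 20.5% to 27.8% of all probe sets did not overlap. By the brightest probe set of each gene, 7 of the 18 genes had a positive difference (probiotic minus high-fat) and 11 a negative one, with a median of -0.0663 beside 0.0106 over the 10573 genes tested, of which 51.4% were positive. Leaving out probiotic sample 1 gave a median of 0.154, leaving out probiotic sample 2 gave 0.0348, and leaving out high-fat sample 2 gave 0.113. The count at an unadjusted p under 0.05 was 5 of 21 without high-fat sample 1 (the probe sets of Ccl6, Cxcl1, Cxcl12, Cxcl13 and Cxcr4), beside 8.19% of all probe sets. It was 1 without high-fat sample 2 or 3 or probiotic sample 1 or 3, beside 4.27% to 9.51% of all. With the Actb gap in the fit it was 0.

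**Figure D2:**
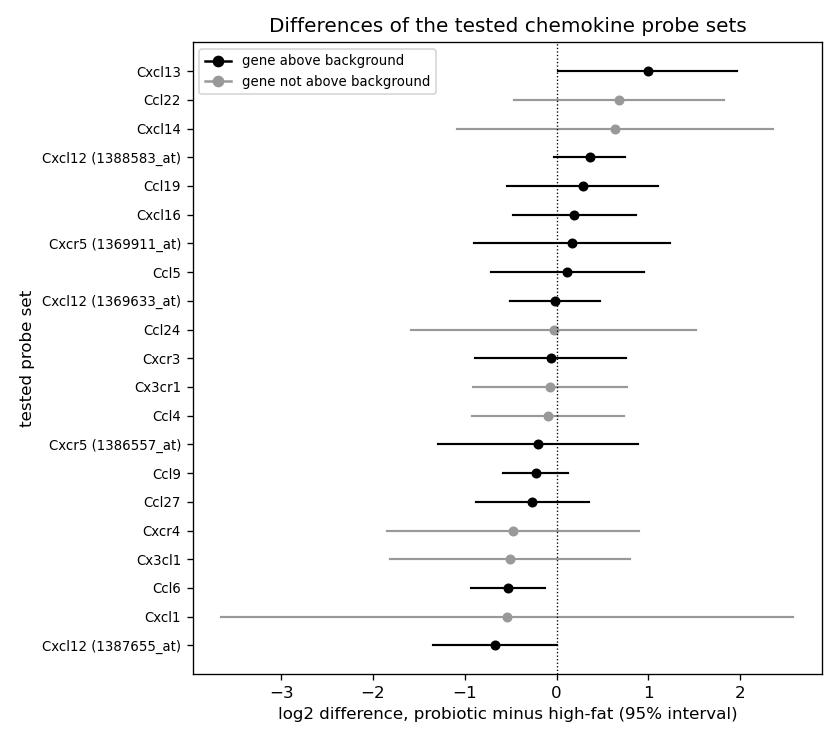
Points are log2 differences, probiotic minus high-fat, and lines their 95% intervals for the 21 tested probe sets. Black marks genes above background and grey the others. The intervals of Cxcl13 (0.0214 to 1.97) and Ccl6 (-0.926 to -0.128) exclude 0 before adjustment, and that of Cxcl1 is the widest, from -3.65 to 2.58.

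Among the CC ligands, Ccl6 had lower values in every probiotic liver than in any high-fat liver. Ccl6 is a ligand made by myeloid cells that in mouse acts through Ccr1. Its log2 signal was 11.27, 11.43 and 11.71 in probiotic samples 1, 2 and 3, against 11.85, 12.12 and 12.03 in high-fat samples 1, 2 and 3. The highest probiotic value lay just below the lowest high-fat value. The difference was -0.53 (SE 0.178, 95% interval -0.926 to -0.128), 1.44-fold lower, with a limma p of 0.0151 before and 0.726 after adjustment. The deposited intensities ran from 2430 to 3389 in probiotic livers and from 3662 to 4273 in high-fat livers. The groups thus did not overlap in these values, but under median centring of the arrays they overlapped and the unadjusted p was over 0.05.

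Its neighbour Ccl9, also a myeloid ligand for Ccr1 in mouse, overlapped between groups. The signals were 14.80, 14.32 and 14.69 in probiotic samples 1, 2 and 3, against 14.89, 14.64 and 14.95 in high-fat samples 1, 2 and 3. The difference was -0.22 (SE 0.157, 95% interval -0.578 to 0.129, adjusted p = 0.76). Ccl5, which draws T cells and monocytes and lies on the other side of Ccl9, was close between groups in the mean. Its values were 8.32, 8.20 and 9.15 in probiotic livers and 7.84, 8.42 and 9.05 in high-fat livers, a difference of 0.12 (SE 0.37, 95% interval -0.714 to 0.949). The sample 3 livers of both groups had the highest Ccl5 values. Ccr1, the receptor named for both myeloid ligands, was above the limit on 1 array, probiotic sample 2.

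Differences of Kupffer cell and neutrophil markers had the sign of that of Ccl6 in most cases, and none of these markers passed the adjusted test. All 13 Kupffer cell and macrophage markers on the array had a negative difference (median -0.36), and the sum of their signals was 20360 to 23100 in probiotic livers, against 23420 to 30460 in high-fat livers. All 13 were above the background limit on some array, and 1 of 13 had an unadjusted p under 0.05. Of 6 tested neutrophil markers 5 had a negative difference (median -0.58). The sum of the 8 neutrophil markers on the array was 1017 to 1238 in probiotic livers, against 1645 to 2418 in high-fat livers. In high-fat samples 2 and 3, S100a9 (9.65 and 9.43) and Lcn2 (9.98 and 8.66) were the brightest of the 8. The sum rests largely on them there. Csf3r and Camp were below the limit on every array and were not tested, with differences of 1.25 and -0.363. Monocyte and dendritic cell markers, among which are the members Ccr2 and Cx3cr1, overlapped between groups in their sum. Of 3 tested 1 had a positive and 2 a negative difference (median -0.07), and the sum of the 7 on the array was 3880 to 5000 in probiotic livers, against 4798 to 6065 in high-fat livers. Cd74 was by far the brightest of the 7 in every liver (11.77 to 12.48), and the sum rests largely on it. Ccr2 and Flt3 were below the limit on every array. The part of these cells in the Ccl6 values was not tested.

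Cxcl13 had the largest positive difference of the 21 probe sets. It is the ligand that draws B cells into lymphoid follicles through the receptor Cxcr5. Its signal was 9.75, 9.37 and 10.90 in probiotic samples 1, 2 and 3, against 9.65, 8.34 and 9.03 in high-fat samples 1, 2 and 3. Probiotic sample 3 was the highest and high-fat sample 2 the lowest, and the groups overlapped, since high-fat sample 1 exceeded probiotic sample 2. The difference was 1.00 (SE 0.433, 95% interval 0.0214 to 1.97), 1.99-fold higher, with a limma p of 0.0461 before and 0.726 after adjustment. Without probiotic sample 3 it was 0.545.

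Cxcr5 itself overlapped between the groups, and the sign of its difference varied with the probe set and the samples used. The brighter of its probe sets, 1386557_at, had 8.99, 7.76 and 8.04 in probiotic livers and 7.84, 9.54 and 8.01 in high-fat livers. The highest value of each group stood in a different sample number, and the difference was -0.20 (SE 0.483, 95% interval -1.29 to 0.885). It turned to 0.347 without high-fat sample 2 and to 0.0494 without probiotic sample 2. The other probe set, 1369911_at, was above the limit on 3 arrays and gave 0.17 (SE 0.475). Of the B cell markers, 3 were on the array and Cd79b was below the limit on every one. Their summed signal was 363 to 490 in probiotic livers, against 365 to 540 in high-fat livers. Jchain was the brightest of them in every liver but high-fat sample 2. Of the 2 tested, Ms4a1 had a negative difference (-1.41, SE 0.713) and Jchain a positive one (0.508, SE 0.493). The summed B cell markers thus overlapped between the groups, and the part of B cells in the Cxcl13 values was not tested.

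**Figure D3:**
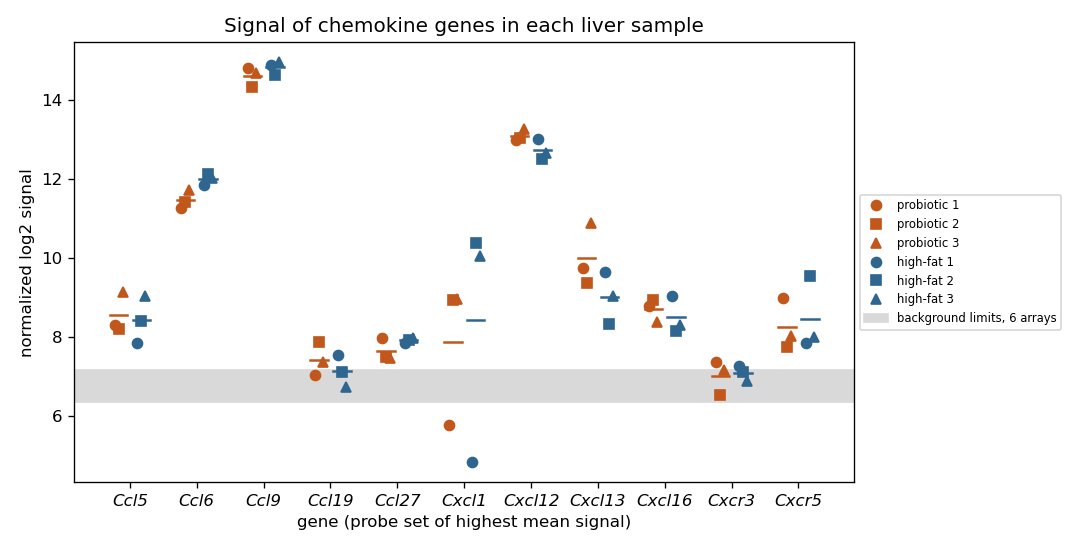
Points are normalized log2 signals in each liver, brown-orange for probiotic and blue for high-fat, with circle, square and triangle for samples 1, 2 and 3, and bars are group means (n = 3). The grey band spans the background limits of the 6 arrays, 6.37 to 7.17. Ccl6 separates the groups narrowly, and Cxcl1 is below the band in sample 1 of both groups and above it in the other 4 livers.

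Cxcl12, the ligand that holds blood cell precursors and lymphocytes in place through Cxcr4, was read by 3 probe sets that gave different answers. Probe set 1388583_at had 12.98, 13.05 and 13.26 in probiotic samples 1, 2 and 3, against 13.02, 12.51 and 12.67 in high-fat samples 1, 2 and 3. Its difference was 0.36 (SE 0.173, 95% interval -0.0274 to 0.75, adjusted p = 0.732 with limma). Only high-fat sample 1 reached the probiotic values.

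Probe set 1387655_at pointed the other way, with 9.70, 8.89 and 9.18 in probiotic samples 1, 2 and 3, against 10.29, 10.08 and 9.39 in high-fat samples 1, 2 and 3. The difference was -0.67 (SE 0.301, 95% interval -1.34 to 0.0106, adjusted p = 0.728 with limma), and it was -0.138 with the Actb gap in the fit. Here high-fat sample 3 lay below probiotic sample 1. Probe set 1369633_at gave a difference near 0, -0.01 (SE 0.218), with 11.60, 11.42 and 11.79 in probiotic livers and 12.06, 11.42 and 11.38 in high-fat livers. The annotation used here names the gene and not the transcript form each probe set reads, and whether the 3 read different forms was not tested. For Cxcr4, the receptor, none of 3 probe sets was above the limit on all 3 arrays of a group. Probe set 1370097_a_at ran from 4.73 to 7.68 and 1373661_a_at from 4.29 to 6.74. The brightest, 1389244_x_at, had 5.12, 7.01 and 7.03 in probiotic livers and 6.21, 6.89 and 7.49 in high-fat livers. The x in its name means that some of its probes may cross-hybridise.

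**Figure D4:**
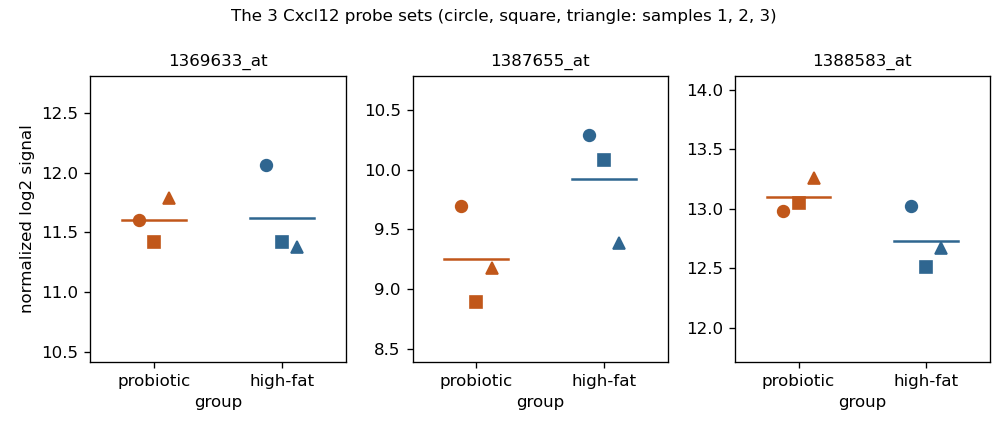
Each panel is 1 of the 3 Cxcl12 probe sets, with normalized log2 signals of the 3 probiotic (left) and 3 high-fat livers (right) and bars for group means (n = 3). The axes cover the same span around different levels. The means differ by 0.36 in one panel, by -0.67 in another and by -0.01 in the remaining one.

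Cxcl1, a neutrophil attractant that acts through Cxcr2 and is a classical target of NF-kB, varied more within each group than between them. Its signal was 5.77, 8.93 and 8.97 in probiotic samples 1, 2 and 3, against 4.84, 10.37 and 10.06 in high-fat samples 1, 2 and 3. Sample 1 of each group was below the background limit, and the other 4 livers stood well above it. In deposited intensities this was 40.4, 463 and 485 in probiotic livers, against 14.1, 1268 and 1076 in high-fat livers. The group means were 7.89 ± 1.84 in probiotic and 8.43 ± 3.11 in high-fat livers (SD, n = 3 each), and the difference was -0.54 (SE 1.38, adjusted p = 0.947 with limma). Leaving out high-fat sample 1 gave -2.34 and leaving out probiotic sample 1 gave 0.524. Without high-fat sample 2 it was 0.44, and without high-fat sample 3 it was 0.288. The values of Cxcl1 are given in full although it did not meet the rule for background, a choice made after they were seen. Equal sample numbers do not mark paired livers, as far as the labels say.

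The other ligands of the neutrophil receptors stayed near background. Cxcl2, which lies next to Cxcl1, had signals of 5.60 to 6.39 in probiotic livers and 5.18 to 6.43 in high-fat livers, and Cxcl6 was below the limit on every array. With signals this close to the limit or below it, a split between sample 1 and the rest, as Cxcl1 had, could not be read for either. Of 5 Cxcl3 probe sets, 1370633_at had 7.06, 7.13 and 4.94 in probiotic livers and 4.86, 5.41 and 4.78 in high-fat livers, above the limit in probiotic samples 1 and 2 only. The other Cxcl3 probe sets were above it on at most 1 array each, and none of the 5 passed the signal filter. These ligands are close relatives of each other, so the split of signal among their probe sets is uncertain. The receptors Cxcr1 and Cxcr2 were below the limit on all 6 arrays, with 4.39 to 6.57 in probiotic livers and 4.6 to 6.68 in high-fat livers.

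The 4 remaining genes above background also overlapped between groups. Cxcl16, a membrane-bound ligand that also takes up oxidized lipoprotein, had 8.79, 8.93 and 8.38 in probiotic livers and 9.05, 8.16 and 8.31 in high-fat livers, a difference of 0.19 (SE 0.298, 95% interval -0.476 to 0.865) that ran from 0.0212 to 0.469 with 1 sample left out. Ccl19, which guides T cells and dendritic cells, had 7.05, 7.88 and 7.36 in probiotic livers and 7.56, 7.12 and 6.75 in high-fat livers, a difference of 0.29 (SE 0.366) that ran from 0.0594 to 0.496 with 1 sample left out. It was above the limit in all 3 probiotic and in 2 high-fat livers.

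Ccl27, an epithelial ligand for Ccr10, had 7.98, 7.51 and 7.48 in probiotic livers and 7.84, 7.94 and 7.99 in high-fat livers, a difference of -0.26 (SE 0.273). Cxcr3, which on T cells receives the 3 ligands left out here, had 7.38, 6.53 and 7.18 in probiotic livers and 7.26, 7.12 and 6.90 in high-fat livers, a difference of -0.06 (SE 0.365, 95% interval -0.884 to 0.759). Adjusted p-values with limma were between 0.83 and 0.976. The sum of T and NK cell markers, among which Cd3d and Cd8b were below the limit on every array, was 879 to 1293 in probiotic livers, against 1134 to 1388 in high-fat livers.

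Among the 27 probe sets below the signal filter, which were not tested, the groups did not overlap for 3 with lower values in probiotic livers, beside 5.03% of all probe sets below the filter, and for 0 with higher values, beside 4.83%. Those 3 were Ccl21, Ccl20 and Ccr10, named after their values were seen. Ccl21, which draws T cells and dendritic cells to lymph nodes, had 5.0, 4.46 and 4.73 in probiotic samples 1, 2 and 3, against 7.08, 5.56 and 7.50 in high-fat samples 1, 2 and 3. All 3 probiotic livers and high-fat sample 2 were below the background limit. Measured against that limit no fold can be given, since the high-fat mean of 6.71 did not exceed it.

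Ccl20, the ligand of Ccr6 on Th17 cells and dendritic cells, had 4.79, 5.78 and 5.83 in probiotic livers and 5.91, 6.28 and 6.08 in high-fat livers. Ccr10, the receptor for Ccl27 and Ccl28, had 4.61, 4.98 and 5.33 in probiotic livers and 6.16, 5.64 and 6.38 in high-fat livers. Both genes were below the limit on all 6 arrays, and values there have no order that can be read as expression. Without the signal filter, limma gave 4 of 48 member probe sets an unadjusted p under 0.05 with lower values in probiotic livers (of Ccl6, Ccl21, Ccr10 and Cxcl12), 1 one with higher values (Cxcl13), and 0 an adjusted p under 0.05. Of all probe sets, 6.41% then had an unadjusted p under 0.05 in either direction.

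The remaining members were near or below background. Cx3cr1, the fractalkine receptor of patrolling monocytes and tissue macrophages, was above the limit on 4 arrays, with 6.92, 7.24 and 6.76 in probiotic livers and 6.69, 7.53 and 6.91 in high-fat livers. Its ligand Cx3cl1 was above the limit on 2 arrays, both high-fat, with 5.73, 6.30 and 6.72 in probiotic livers and 7.68, 5.69 and 6.90 in high-fat livers. Cxcl14 had 7.63, 7.74 and 6.30 in probiotic livers and 7.09, 4.76 and 7.91 in high-fat livers by its brighter probe set, and the lowest value in each group was below the limit.

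Ccl4, which attracts monocytes and T cells and is a neighbour of Ccl3, had 6.66 to 7.09 in probiotic and 6.72 to 7.40 in high-fat livers, and Ccl24, an eosinophil attractant, was above the limit on 3 arrays. Ccl2, the main attractant of monocytes, had 6.39, 6.66 and 5.11 in probiotic livers and 5.92, 6.37 and 6.69 in high-fat livers, above the limit in probiotic sample 1 only, and its receptor Ccr2 was above it in none. Ccl3, Ccl17 and Ccl22 were above the limit in that same liver alone, whose limit of 6.37 was the lowest of the 6. Ccr3 on eosinophils and Ccr4 on T cells were each above it on 1 array. Outside Cxcl1 no signal of the 27 genes exceeded 7.91.

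Genes around the chemokine system were read from lists of inducers, of signalling behind the receptors and of leukocyte adhesion, in each case by the brightest probe set of a gene, beside the median of 0.0106 over all genes tested. None of these genes passed the adjusted test in the main fit, which had all 6 samples and no block for the sample number. At an unadjusted p under 0.05, 2.99% of all probe sets were higher and 3.86% lower. Of 20 tested genes on the list of inducers, which holds cytokines, their receptors and NF-kB subunits, 9 had a positive difference and 11 a negative one (median -0.14). At an unadjusted p under 0.05, 1 was higher and 5 lower. The list also held Nfkbia and Tnfaip3, which restrain NF-kB and had positive differences (0.774 and 0.628). Il1b, the cytokine interleukin-1 beta, had 7.81, 6.71 and 7.90 in probiotic livers and 8.33, 9.34 and 9.16 in high-fat livers, a difference of -1.47 (SE 0.395, adjusted p = 0.726). It was -0.542 with the Actb gap in the fit. Its receptor Il1r1 had 10.83, 10.47 and 10.75 in probiotic livers and 10.94, 12.63 and 12.81 in high-fat livers, a difference of -1.44 (SE 0.424, adjusted p = 0.726). High-fat sample 1 lay close to the probiotic values, and without it the difference was -2.03 (adjusted p = 0.0111 with limma). Leaving out any other 1 sample instead gave Il1r1 adjusted p-values of 0.409 to 0.942 with limma. Tnfrsf1a, the main receptor for TNF, had 11.44, 11.63 and 11.19 in probiotic livers and 11.71, 12.93 and 12.90 in high-fat livers. The groups did not overlap for any of these 3 genes, which were named for the smallest p of their list. Of all probe sets tested, 6.70% did not overlap with lower values in probiotic livers. For Tnfrsf1a the difference was -1.09 (SE 0.312, adjusted p = 0.726). Il17ra, a receptor for IL-17, named after its values were seen, was the one with higher values, with a difference of 0.60 (SE 0.205, adjusted p = 0.726).

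Of 21 tested genes of receptor signalling 10 had a positive and 11 a negative difference (median -0.05), and 2 were lower at an unadjusted p under 0.05. Stat3, a transcription factor activated by cytokine receptors, had 9.12, 10.50 and 10.49 in probiotic livers and 11.46, 12.57 and 12.86 in high-fat livers. It was named for the smallest p of its list. The groups did not overlap, beside 6.70% of all probe sets tested with lower values in probiotic livers. The Stat3 difference was -2.26 (SE 0.439, adjusted p = 0.688). With the sample number as a block in the fit, its adjusted p was 0.00975 with limma, though the labels do not mark pairs. The other was the G protein subunit Gnb1 (-0.88, SE 0.386, adjusted p = 0.728), which was 0.233 with the Actb gap in the fit, -1.35 without probiotic sample 1 and -0.535 without probiotic sample 2. Of 11 tested adhesion genes 3 had a positive and 8 a negative difference (median -0.23), with 2 lower at that level. They were the integrin subunit Itgb1 (-0.45, SE 0.173) and Icam1, to which leukocytes bind on endothelium (-0.62, SE 0.268), both at an adjusted p of 0.726. Icam1 had 11.15, 11.05 and 10.53 in probiotic livers and 11, 11.84 and 11.77 in high-fat livers, and high-fat sample 1 lay among the probiotic values.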

How the data were processed

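The deposited table held 1 intensity per probe set and array. Per the labels' protocols, biotin-labelled cRNA from 8 ug of Trizol-extracted RNA was hybridised to Affymetrix arrays, and the authors' summary software is not given in the sources used here. Values were taken as log2(intensity + 16) and quantile normalized, so differences of dim probe sets are understated and shifts of the whole distribution between groups are removed. The 57 array controls were not tested. Groups came from the titles. limma 3.58.1 in R 4.3.3 compared probiotic with high-fat (lmFit, eBayes with trend, two-sided) over 18625 probe sets, with Benjamini-Hochberg adjustment, and was tested on simulated data. Symbols came from the platform annotation, and all 37 member genes matched the RefSeq table with 0 symbols changed. Every member above background is named with its values, a gene by its brightest probe set. Up to 3 genes of smallest p are named from each list, those under 0.05. Il17ra and Ackr1 were added after their values were seen, and Nfkbia and Tnfaip3 were also named outside this rule. Members and lists were chosen with earlier results of these data known. Deviations of same-numbered samples from their group means correlated at 0.1436, 0.027 and 0.0774, not all above 0.1, so numbers were not taken as pairs. Summed marker signals are on the normalized linear scale. Alternatives changed normalization, pseudocount (1, 64), filter, variance model, weights, replicate block, the Actb gap as covariate, the background limit and the samples. Figures used matplotlib 3.10.9.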

Additional observations from a re-analysis of the deposited data

How the results depend on the processing

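No member passed the adjusted test under any of the 17 alternatives of the fit. The count at an unadjusted p under 0.05, 2 as reported, was 1 under median centring, without the intensity trend and without both replicate 2 arrays, 0 once the Actb gap entered the fit, 5 without the signal filter, and 1 to 5 with 1 sample left out. Under median centring the p of Ccl6 was 0.152. Tested probe sets without overlap, 1 as reported, were 2 under median centring (Ccl22 and Cxcl12, not Ccl6; 8.85% of all probe sets did not overlap), 4 without the filter (11.6% of all), 7 without both replicate 2 arrays (32.6% of all) and 1 to 7 with 1 sample left out, when 20.5% to 27.8% of all probe sets did not overlap. With 1 sample left out, the median over members ran from -0.184 to 0.154 and the calls over all probe sets from 3 to 12 (4 as reported), with 12 when probiotic sample 1 was left out and 9 when high-fat sample 1 was. The limit at the 99th percentile left 5 genes above background. With the replicate number as a block the counts were 0 and 3 members and 4 probe sets in all, and it changed no adjusted call of a member, while Stat3 had an adjusted p of 0.00975. Directions turned for Ccl19 (-0.228), Cxcl16 (-0.123), Cxcr3 (0.482), Cxcr5 (0.975), Cxcl12 1369633_at (0.0377), Gnb1 (0.233) and Pf4 (-0.00123) with the Actb gap as a covariate. They turned for Cxcl16 (-0.0938), Cxcr3 (0.216) and Cxcr5 (0.602) without both replicate 2 arrays. With array weights Cxcl12 1369633_at had 0.0877, Cxcr3 0.0719 and Cxcr5 0.045, and that Cxcl12 probe set had 0.0496 under median centring and 0.00167 without normalization. In the fits without 1 sample, Ccl5 ran from -0.184 to 0.417, Cxcl1 from -2.34 to 0.524, Cxcl12 1369633_at from -0.137 to 0.204, Cxcr3 from -0.24 to 0.191, Cxcr5 from -0.564 to 0.347 and its other probe set from -0.196 to 0.595. Why these moved was not tested. Signals near the background limit bound what these arrays can show for most receptors.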

Other observations

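Genes of the chemokine system that carry other names were read as well. Of 10 on the array, 6 were tested, 4 with a positive and 2 with a negative difference (median 0.62), 0 passed the adjusted test with limma, and 2 were higher at an unadjusted p under 0.05, beside 2.99% of all probe sets. Cmklr1, the receptor for the adipokine chemerin on macrophages and dendritic cells, had 6.88, 7.87 and 7.83 in probiotic livers, against 5.76, 7.03 and 5.40 in high-fat livers. Probiotic sample 1 lay below high-fat sample 2, and the difference was 1.46 (SE 0.524, adjusted p = 0.726). Pf4, a CXC chemokine of platelets, had 8.50, 10.20 and 9.54 in probiotic livers and 8.14, 8.49 and 8.77 in high-fat livers, a difference of 0.94 (SE 0.401, adjusted p = 0.726). Leaving out probiotic sample 2 gave 0.547, and leaving out probiotic sample 1 gave 1.41. The summed platelet markers, Pf4 among them, were 756 to 1510 in probiotic livers, against 695 to 876 in high-fat livers, with Gp9 below the limit on every array. Pf4 was the brightest of these markers in each probiotic liver, so the sum does not stand apart from it. Of 3 tested platelet markers, Pf4 and Ppbp (0.677, SE 0.457) had a positive difference and Itga2b a negative one (-0.446, SE 0.251). Ackr1, the chemokine-binding receptor of red cells and venules, was below the limit on all 6 arrays.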
